A study of Mus musculus with 95 samples.

Results

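The comparison was of white adipose tissue (WAT), the fat that stores triglyceride, between 7 control libraries (labelled Con) and 8 time-0 libraries (labelled T0). Its members were chosen by tissue and treatment label alone, and they are 15 of the 95 libraries in the series. Both groups belong to a study of a torpor-like state (TLS) in C57BL/6J mice, an inbred laboratory strain. Tissue of time-0 mice was collected at 17.4 weeks of age, and that of control mice 3 months later, at 29.3 weeks. Of the 7 control animals 4 were F and 3 M by their labels, and of the 8 time-0 animals 4 were F and 4 M, and each library came from its own animal. No transgene, virus or drug is named in the labels of either group. The handling of the controls, the fat depot and the hour of collection are not given in the sources used here, so age, elapsed time and handling cannot be told apart. The other 8 white fat libraries, from mice with the torpor-like state (labelled Stim), also entered the fit, but their levels are not compared here. They took part in the count filter, the scaling, the sex covariate and the estimate of the spread. The fit with them tested 16784 genes, and that of only the 15 control and time-0 libraries tested 15854. The WAT library of control 9BA4 was not analysed here.

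White fat holds adipocytes, which take up lipid from circulating lipoproteins through lipoprotein lipase, store it as triglyceride, release it in fasting and secrete hormones such as leptin and adiponectin. Between them lie fibroblast-like progenitors, vessels, mesothelium, macrophages and, in visceral depots, lymphoid clusters with B-1 cells and plasma cells. Adipocytes also run the circadian clock, a loop in which Arntl (BMAL1) and Clock drive Per, Cry and Nr1d1 genes, whose products repress that drive in turn.

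Total counts per library were 16312346 to 22485948 in controls and 16030216 to 22921038 at time 0. Adipocyte markers were abundant in all 15 libraries, with a summed level of 30829 to 61591 CPM (counts scaled to the effective library size) in controls and 21436 to 51894 at time 0. Time-0 library T0_6, from an M animal, stood apart. Its 19 epididymis markers summed to 72434 CPM, or 6.92% of its counts. The next level was 61.7 CPM in T0_3, from an F animal, and the other 13 libraries were at 2.63 CPM or less. How such transcripts came into the library of an F animal was not tested. Control library 983B, from an F animal, stood apart in transcripts of urothelium, the lining of the bladder: 9 such markers, a list written after their values were seen, summed to 920 CPM there, 329.4 in T0_6 and 42.4 to 211 in the other 13 libraries. Upk1a, a uroplakin of that lining, was at 144.9 CPM in 983B and at most 1.83 CPM in the other 14. Within F animals the library numbers of controls all lay above those of time 0, so library number and group cannot be told apart in F. In M animals the numbers of both groups interleaved.

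**Figure D1:**
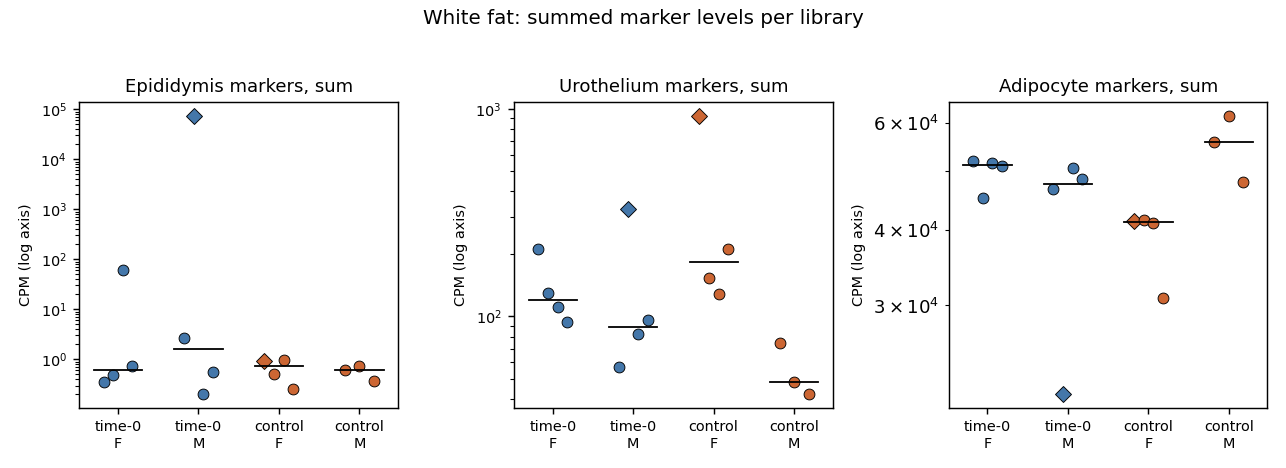
Summed CPM of epididymis, urothelium and adipocyte markers (log axes) in each white fat library by group and sex, with diamonds for T0_6 (time-0) and 983B (control) and lines at the median of each group and sex. T0_6 lies at 72434 CPM for epididymis markers and lowest for adipocyte markers (21436 CPM), and 983B lies highest for urothelium markers (920 CPM).

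How many genes differed between control and time-0 fat depended on the tool and the libraries. With all 23 white fat libraries in the fit, 27 of 16784 genes tested passed an adjusted p below 0.05 (0.161%; edgeR's quasi-likelihood test with Benjamini-Hochberg adjustment), 22 higher in controls (0.131%) and 5 lower (0.0298%). On the same libraries DESeq2 gave 210 genes and limma voom with quality weights 726, and all 27 were among them. Of these 27, 7 encode immunoglobulin chains or the chain that joins them, a number that the count filter partly fixes, as described below. The log2 fold change was above 1 in 16 of the 22 risers and below -1 in 1 of the 5 fallers. With only control and time-0 libraries in the fit and T0_6 left out, an alternative chosen after the data were seen, 401 of 15725 genes passed (2.55%), 223 higher (1.42%) and 178 lower (1.13%). It tested 24 of the 27 genes, and all 24 passed with the same sign. Leaving out 983B as well gave 195 of 15850 (1.23%), with 0.669% of genes tested higher and 0.562% lower, and 22 of the same 24 genes passed. These are called the fits of 23, 14 and 13 libraries below. Their biological coefficients of variation, the spread between animals beyond counting error, were 0.390, 0.229 and 0.224. Levels of all 7 controls lay above all 8 time-0 levels in 30 genes (0.179%) and below them in 29 (0.173%).

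**Figure D2:**
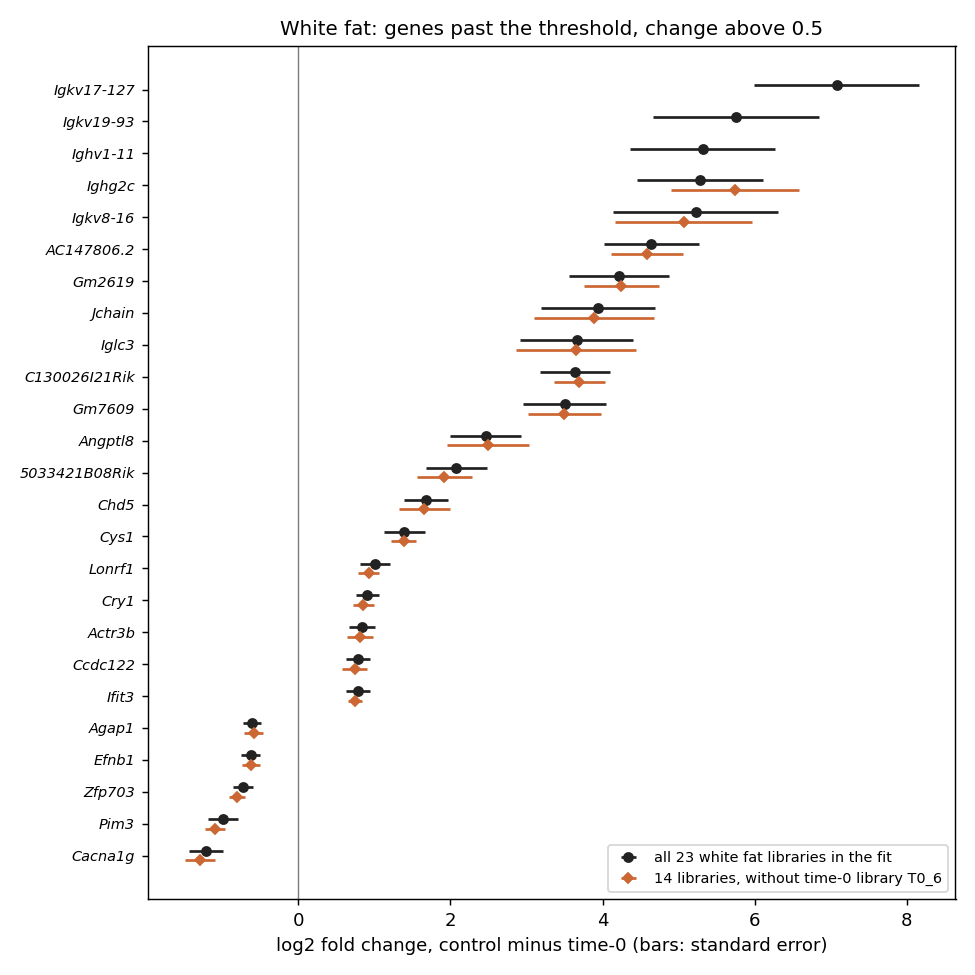
Log2 fold change (control minus time-0, bars of 1 standard error) of the 25 genes that passed the threshold with a change above 0.5 in either direction in the fit of 23 libraries (circles) and, where tested, in the fit of 14 libraries without T0_6 (diamonds). The 20 risers shown start with Ifit3 at 0.78, and the 5 fallers run from Agap1 at -0.61 to Cacna1g at -1.21.

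Transcripts of immunoglobulins, the antibodies made by B cells and plasma cells, were higher in control fat. Of 229 annotated variable (V) and constant (C) genes, 50 had enough counts to be tested, and 6 passed as higher, where 0.131% of all genes did. Genes with few counts at time 0 could enter only through the libraries where they were high. Of the 6, 4 are V genes with 2 to 26 counts over all time-0 libraries. The direction of the 50 and the number that passed are thus partly fixed by that filter, and neither is taken as a result. The sums below take in all 229. In bulk tissue, more cells of a type and more RNA per cell cannot be told apart. V and C genes belong to families of similar sequence, so reads may be split unevenly among members.

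Summed over all V and C genes, the level was 765, 1160, 1359, 1533, 1944, 1946 and 3930 CPM in the 7 controls and 137.1 to 753 CPM at time 0, without overlap. Ighm, the heavy chain of IgM, made up much of that sum: controls ranged from 686 to 1690 CPM (median 887) and time-0 libraries from 114.8 to 722 (median 428). Its log2 fold change of 1.46 (SE 0.41) did not pass in the fit of 23 libraries (adjusted p = 0.161) and did in that of 14 (adjusted p = 0.0357, edgeR).

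The V genes alone were high in all 4 F controls and in 1 of the 3 M controls. In the 4 F controls they summed to 691, 327, 277 and 170 CPM, and in the 3 M controls to 256 (E329), 19.7 (A367) and 14.8 (5A66) CPM. All 8 time-0 libraries lay between 8.30 and 50.3 CPM. So 5 of 7 controls lay above every time-0 library, and the remaining 2, both M, lay among them. In edgeR the difference of this change between the sexes passed for no immunoglobulin gene, nor for any other gene, as described at the end.

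Jchain, which joins IgM and IgA into polymers and is made by plasma cells, followed that split. Its levels were 302, 141.2, 159 and 85.1 CPM in F controls and 182, 9.92 and 8.32 CPM in M controls, against 3.41 to 17.6 CPM at time 0. Its log2 fold change was 3.94 (SE 0.75, adjusted p = 0.0332, edgeR), and 3.60 without T0_6 and 983B (adjusted p = 0.0483). Igkc, the kappa light-chain constant region, ranged from 29.1 to 1380 CPM in controls (median 349) and from 8.30 to 65.3 CPM at time 0 (median 15.6). It did not pass in the fit of 23 libraries (3.83, SE 0.85, adjusted p = 0.0679) and did in that of 14 (adjusted p = 0.0414).

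Of the switched isotypes, Ighg2c and Ighg3 showed another pattern across animals. Ighg2c, an IgG heavy chain, was at 0.602 to 14.3 CPM in controls (median 4.70) and at 0 to 0.653 CPM at time 0 (median 0.052), with a log2 fold change of 5.28 (SE 0.83, adjusted p = 0.00554, edgeR). Only the lowest control, F library 9916, lay below the highest time-0 library, T0_6, and both low-V M controls lay above it, at 2.004 and 6.17 CPM. Ighg3 was the 1 immunoglobulin gene without overlap, with controls from 2.53 to 63.3 CPM and time-0 libraries from 0 to 1.13 CPM, and it passed only in the fits of 14 and 13 libraries (adjusted p = 0.0835 in that of 23, 0.0182 and 0.0255 in the others). Ighg2b and Ighg1 did not share this pattern. For Ighg2b both low-V M controls, at 1.30 (A367) and 0.297 CPM (5A66), lay within the time-0 range of 0 to 8.24 CPM. Ighg1 was at 176.8 CPM in E329, at most 0.913 CPM in the other controls and at most 8.16 CPM at time 0. Igha, the IgA heavy chain, ranged from 0.875 to 38.7 CPM in controls and from 0.450 to 4.39 at time 0 and did not pass in the fits of 23, 14 or 13 libraries (adjusted p = 0.122, 0.0734 and 0.145). Of the lambda constant genes, Iglc3 rose by 3.66 (SE 0.74, adjusted p = 0.0385), and 25.1% of its 31-base words are shared with Iglc2.

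The V gene in use differed between animals. In all 4 F controls the leading heavy-chain V gene was Ighv11-2 and the leading kappa V gene belonged to the Igkv14 family, a pairing known from B-1 cells whose antibody binds phosphatidylcholine. Ighv11-2 held 69.4% of heavy V counts in 983B (95% Clopper-Pearson interval 67.7% to 71.1%), 42.9% in 9916 (39.5% to 46.3%), 40.4% in D215 (37.6% to 43.4%) and 15.8% in A123 (14.1% to 17.7%). The Igkv14 gene held 66.6%, 51.9%, 38.8% and 16.3% of kappa V counts in the same libraries. The intervals cover counting error only. The pair was not found in F controls alone. Time-0 M library T0_5 was led by the same genes, at 19.0% of 42 heavy and 19.1% of 152 kappa V counts, and the Igkv14 gene also led the kappa counts in M controls A367 (14.6%) and 5A66 (28.2%) and in T0_7 (17.7%). The M control with high V levels, E329, was led by other genes, Ighv1-22 with 38.2% of heavy V counts (34.7% to 41.7%) and Igkv6-17 with 16.7% of kappa V counts (15.4% to 18.1%).

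Over all libraries of a group, Ighv11-2 had 3241 counts in controls and 47 at time 0, and the Igkv14 gene had 11046 and 220. Library 983B alone gave 2100 and 7016 of the control counts. Neither gene passed in the fit of 23 libraries (adjusted p = 0.0754 and 0.0579), and the Igkv14 gene passed in the fits of 14 and 13 (adjusted p = 0.0429 and 0.0462). The V genes that did pass were Ighv1-11, Igkv19-93, Igkv8-16 and a gene of the Igkv17 family. The Igkv17 gene had 358 counts over the controls and 2 over the time-0 libraries, a ratio of 208 per count sequenced (95% interval 57.2 to 1727, counting error only). That ratio rests on controls 983B, A123, 9916 and E329. Controls D215, A367 and 5A66 had 1 count each, as did time-0 libraries T0_2 and T0_4.

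No marker of lymphocytes passed. Several had few counts at time 0, such as Fcer2a with 1 to 14 per library. As with the immunoglobulin genes, the count filter may partly fix their direction, so the signs below are not taken as a result. Of 25 tested, 23 had a positive log2 fold change (median 0.71), and 6 were higher and 1 lower at an unadjusted p below 0.05, against 5.49% and 6.14% of all genes. In the fit of 14 libraries 10 of 21 were higher and none lower at that level, against 11.1% and 10.1% of all genes, and none passed the adjusted threshold in either fit. Cd79b, a signalling chain of the B-cell receptor, was at 1.11 to 10.5 CPM in controls (median 3.04) and 0.765 to 3.14 at time 0 (median 1.69), with adjusted p = 0.285. Xbp1, a transcription factor that plasma cells and other secretory cells need, was lower in controls, at 157 to 232 CPM against 209 to 332 (log2 fold change -0.45, adjusted p = 0.217), and passed as a fall in the fit of 14 libraries (-0.48, SE 0.12, adjusted p = 0.0469). Lymph node stroma markers summed to 276 to 769 CPM in controls and 202 to 582 CPM at time 0 apart from T0_6 (11036 CPM). Of its 10 markers 7 were tested and none passed, and Ccl21a, the chemokine of lymph node stroma, had a log2 fold change of -0.07 (SE 0.75). The part of cells from other tissue in the immunoglobulin levels was not tested.

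**Figure D3:**
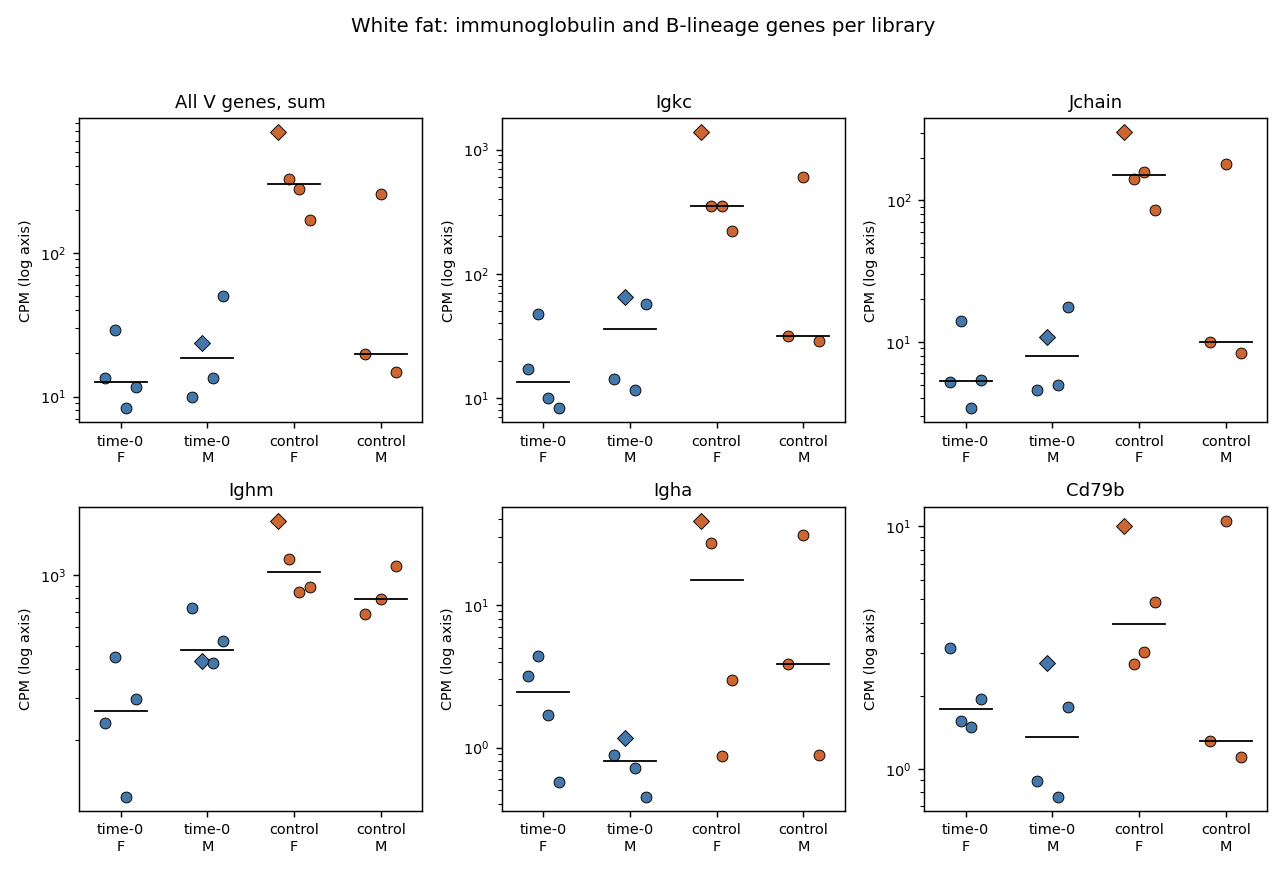
CPM (log axes) of all V genes summed, Igkc, Jchain, Ighm, Igha and Cd79b in each white fat library by group and sex, with diamonds for T0_6 and 983B and lines at medians. V genes, Igkc and Jchain are high in the 4 F controls and 1 M control and low in the other 2 M controls, while Ighm is shifted in both sexes.

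Of the 5 genes with the smallest p values, 3 lie in a repetitive stretch of chromosome 1 beside Sp140 and Sp100, genes of nuclear-body proteins. The other 2 were AC147806.2 and the Igkv17 gene. Those on chromosome 1 and AC147806.2 carry predicted or clone-based symbols and were named after their values were seen. C130026I21Rik (GRCm38 chr1:84992690-85270566, minus strand, protein coding in GENCODE vM21) was at 26.9 to 68.6 CPM in the 4 F controls, 5.35 to 6.36 CPM in the 3 M controls and 0.408 to 3.36 CPM at time 0. Both sexes of controls thus lay above every time-0 library, with F above M. Its log2 fold change was 3.63 (SE 0.46, adjusted p = 0.00114, edgeR).

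Gm2619 (chr1:85156809-85327306, minus strand) and Gm7609 (chr1:85199613-85213786, plus strand) are annotated as transcribed pseudogenes and overlap it. Gm2619 was at 5.57 to 45.9 CPM in controls and 0.047 to 1.86 CPM at time 0 (log2 fold change 4.21, SE 0.66, adjusted p = 0.00554). Gm7609 was at 1.64 to 6.95 CPM against 0.047 to 0.714 CPM (3.50, SE 0.55, adjusted p = 0.00554). AC147806.2, with no location in the annotation used, was at 1.26 to 11.6 CPM in controls and 0 to 0.355 CPM at time 0 (4.64, SE 0.62, adjusted p = 0.00131). In none of these 4 did the groups overlap, and all 4 kept their call when any 1 of the 15 libraries was left out.

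Their counts cannot be assigned with certainty to 1 locus. Of the 31-base words of their transcripts, 34.5% in C130026I21Rik, 51.1% in Gm2619 and 46.8% in Gm7609 also occur in other genes, most often in Sp140, Gm7592 and Gm15433 respectively. The neighbours with unpredicted symbols did not pass: Sp140 was at 13.1 to 26.2 CPM in controls and 8.94 to 21.1 CPM at time 0 (adjusted p = 0.777), and Sp100 at 40.9 to 84.3 against 26.8 to 75.7 CPM (adjusted p = 0.912).

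Of the circadian clock, 1 of 20 genes tested passed in the fit of 23 libraries, and 3 higher and 2 lower in that of 14. The riser was Cry1, a repressor of the loop. Its levels were 7.11, 9.86, 10.1 and 12.6 CPM in F controls, 13.3, 13.6 and 16.7 CPM in M controls, and 4.36 to 10.2 CPM at time 0 (median 5.80). The groups overlapped: the highest time-0 library, T0_7 from an M animal, lay above the lowest 3 F controls. T0_5 (7.24 CPM) and T0_8 (7.20 CPM), also from M animals, lay above the lowest control. The lowest control was 983B. The log2 fold change was 0.90 (SE 0.15, adjusted p = 0.0117, edgeR).

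The clock loop acts on Cry1 through its promoter, shown here as the 250 bases before its start (RefSeq, GRCm38.p6, chr10:85185055-85185304, minus strand). The E-box CACGTG, the letters that BMAL1 and CLOCK bind, lies 60 bases before the start, in capitals:
Cry1: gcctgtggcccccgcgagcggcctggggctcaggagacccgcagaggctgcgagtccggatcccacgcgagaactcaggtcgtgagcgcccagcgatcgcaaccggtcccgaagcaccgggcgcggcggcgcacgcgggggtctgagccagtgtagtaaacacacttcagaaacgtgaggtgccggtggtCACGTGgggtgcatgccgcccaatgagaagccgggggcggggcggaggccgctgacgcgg
Both strands were searched for CACGTG, which reads the same on each, and 6.02% of 32851 such windows hold it. The match is a description of the sequence, not a measured site.

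Nr1d1 (REV-ERBalpha), which represses Arntl, went the other way. It was at 34.1 to 163 CPM in controls (median 131.6) and at 113.8 to 354 CPM at time 0 (median 272), where all libraries but T0_6 were at 220 CPM or above. The log2 fold change of -1.30 (SE 0.31) did not pass in the fit of 23 libraries (adjusted p = 0.0935) and did in those of 14 (-1.35, adjusted p = 0.0348) and 13 (adjusted p = 0.0497). Npas2, a partner of BMAL1, was lower in the fit of 14 libraries (-1.75, SE 0.42, adjusted p = 0.0424). Nfil3, a repressor of D-box genes, was higher there (1.05, SE 0.26, adjusted p = 0.0482).

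Other clock genes did not pass in the fits of 23, 14 or 13 libraries. Per2, a repressor, was at 29.1 to 60.1 CPM in controls and 9.53 to 40.1 CPM at time 0 (log2 fold change 0.88, adjusted p = 0.206). Arntl was at 1.05 to 4.74 CPM against 2.36 to 8.16 CPM (-1.02, adjusted p = 0.288). The outputs Dbp, at 93.6 to 256 against 92.8 to 235 CPM, and Per1, at 68.5 to 114.1 against 57.8 to 136.96 CPM, overlapped throughout (adjusted p = 0.944 and 0.830). Since the hour of collection is not given, the clock phase of each group is unknown.

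**Figure D4:**
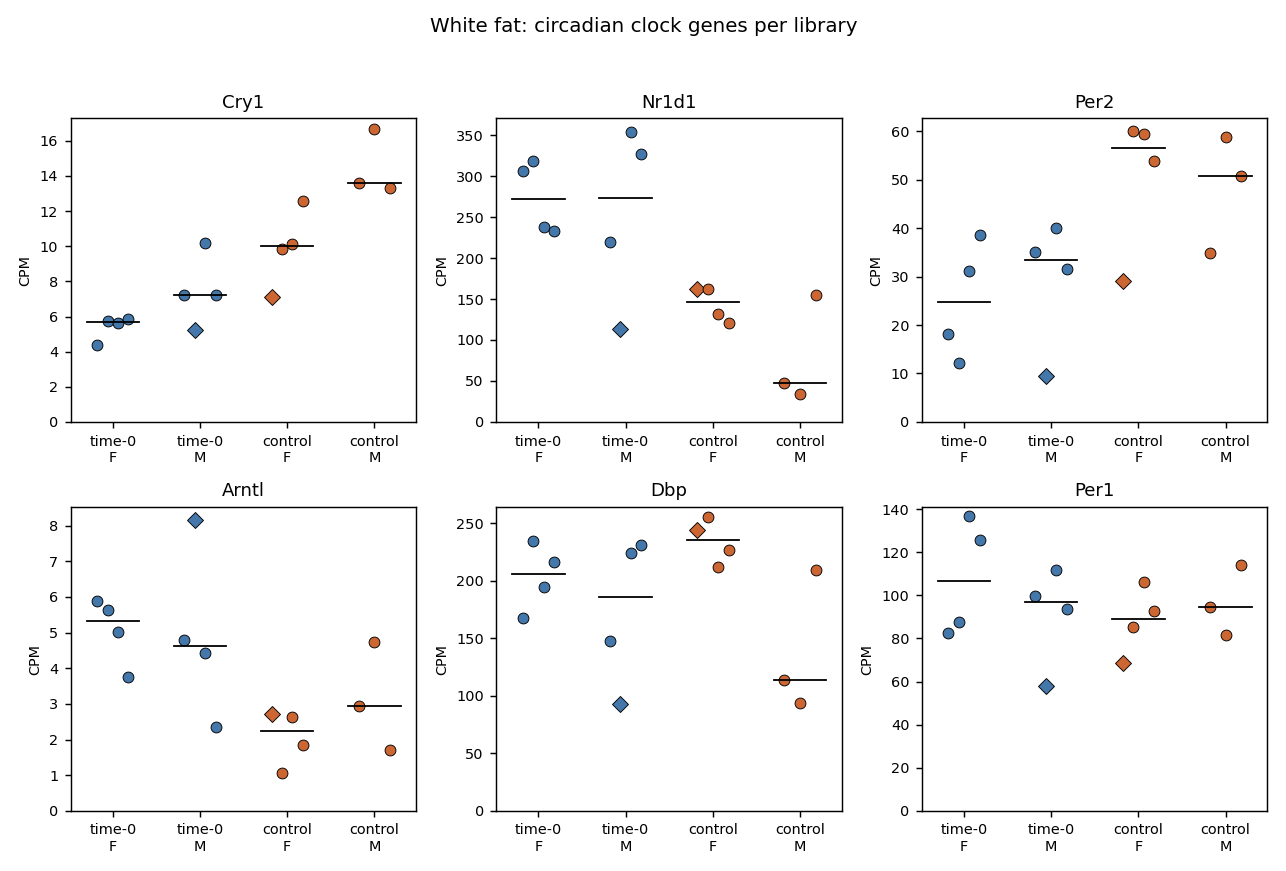
CPM of Cry1, Nr1d1, Per2, Arntl, Dbp and Per1 in each white fat library by group and sex, with diamonds for T0_6 and 983B and lines at medians. Cry1 medians are higher and Nr1d1 medians lower in controls of both sexes, while Dbp and Per1 overlap.

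Ifit3, an interferon-induced protein of antiviral defence, was higher in every control than in any time-0 library. Controls were at 30.7 to 46.1 CPM (median 39.0) and time-0 libraries at 16.0 to 26.6 CPM (median 22.6). Time-0 levels were higher in all 4 F libraries (22.7 to 26.6 CPM) than in the 4 M libraries (16.0 to 22.5 CPM), and controls of both sexes lay above them. The log2 fold change was 0.78 (SE 0.16, adjusted p = 0.0385, edgeR), and 0.70 without T0_6 and 983B (adjusted p = 0.00630). The call was kept in 2 of 15 fits of the remaining white fat libraries that left out 1 control or time-0 library. Ifit3b, its neighbouring copy, did not overlap between groups either (10.9 to 16.5 against 5.03 to 9.62 CPM). It passed in the fit of 14 libraries (0.83, SE 0.12, adjusted p = 0.00351) but not in that of 23 (0.87, adjusted p = 0.0579). Of the 31-base words of Ifit3, 61.8% also occur in Ifit3b, so reads may be exchanged between them.

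Both starts hold a pair of matches to the interferon-stimulated response element, the letters that the interferon-activated factor ISGF3 binds. The 250 bases before each start (RefSeq, GRCm38.p6, chr19:34583279-34583528 and chr19:34607707-34607956, both plus strand) are shown because the copies moved together, with matches to GAAA, any 2 bases and GAAA, all on the reverse strand, in capitals:
Ifit3: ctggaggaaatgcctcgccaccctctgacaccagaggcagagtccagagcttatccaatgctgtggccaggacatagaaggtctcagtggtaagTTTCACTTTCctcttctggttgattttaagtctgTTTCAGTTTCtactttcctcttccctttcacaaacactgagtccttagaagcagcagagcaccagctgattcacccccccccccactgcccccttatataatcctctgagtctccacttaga
Ifit3b: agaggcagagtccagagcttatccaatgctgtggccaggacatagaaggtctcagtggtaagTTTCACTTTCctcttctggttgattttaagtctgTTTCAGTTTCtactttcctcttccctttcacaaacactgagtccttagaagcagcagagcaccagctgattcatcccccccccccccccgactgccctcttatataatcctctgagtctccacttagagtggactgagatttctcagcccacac
The match farther from the start lies 156 bases before that of Ifit3 and 188 bases before that of Ifit3b. Set side by side with a shift of 32 bases, the windows were identical at 86.2% of 218 bases. These letters occur on either strand in 2.98% of 32851 such windows. The rest of the interferon list did not follow: of its 36 genes, 1 passed in each of the fits of 23 and 14 libraries, Ifit3, and the median log2 fold change was 0.13. Ifit3b was not on that list.

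In lipid uptake and triglyceride assembly, 1 of 23 genes passed in the fit of 23 libraries and 1 higher and 4 lower in that of 14. The riser in both was Angptl8, a secreted factor induced by feeding that restrains lipoprotein lipase. It was at 35.9, 62.9, 152 and 170 CPM in F controls and 14.9, 22.3 and 36.4 CPM in M controls. Time-0 libraries were at 4.16 to 11.3 CPM except T0_2 at 34.6 CPM, which lay above 2 M controls. The log2 fold change was 2.46 (SE 0.46, adjusted p = 0.0306, edgeR), 2.50 in the fit of 14 libraries (adjusted p = 0.0358) and 2.33 in that of 13, where it no longer passed (adjusted p = 0.0634).

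Angptl4, a relative that inhibits the same lipase and is induced by fasting, was lower in controls. F controls were at 74.5, 96.1, 137.2 and 138.1 CPM against 349 to 458 CPM in F time-0 libraries, and M controls at 261 to 320 CPM against 238 to 569 CPM. The groups were thus apart in F and overlapped in M. The log2 fold change of -1.13 (SE 0.28) had an adjusted p of 0.108 in the fit of 23 libraries and 0.00983 in that of 14 (-1.32, SE 0.22).

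Pck1, which makes glycerol for triglyceride in fat, had the same shape. F controls were at 545, 676, 830 and 975 CPM against 1816 to 4538 CPM in F time-0 libraries, and M controls at 1753 to 1978 CPM against 708 (T0_6) to 3269 CPM. It did not pass in the fit of 23 libraries (-1.09, SE 0.39, adjusted p = 0.270) and fell in that of 14 (-1.41, SE 0.28, adjusted p = 0.0219). The fatty acid transporter Slc27a1 (-1.04, adjusted p = 0.0160) and the acyltransferase Agpat3 (-0.43, adjusted p = 0.0234) fell there too. Of 21 fatty acid oxidation genes, 2 fell in that fit: Pdk4, which shuts off glucose oxidation in fasting (-1.13, SE 0.24, adjusted p = 0.0266), and Hadha, of mitochondrial beta-oxidation (-0.48, SE 0.11, adjusted p = 0.0401).

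Lep, the gene of leptin, whose level follows fat mass and feeding, was at 1419 to 3926 CPM in controls (median 2458) and 662 to 2525 CPM at time 0 (median 824), where T0_5 was the only library above 1288 CPM. Its log2 fold change was 1.31 (SE 0.52, adjusted p = 0.323) in the fit of 23 libraries and 1.24 (SE 0.29, adjusted p = 0.0371) in that of 14. Of 23 genes of insulin and glucose handling, 1 rose and 2 fell in the fit of 14 libraries. The riser was Ppp1r3c, a glycogen-targeting subunit of protein phosphatase (0.88, SE 0.21, adjusted p = 0.0401), and the fallers were Pck1 and Pdk4. Irs2, an insulin receptor substrate repressed by insulin, did not pass (-0.86, adjusted p = 0.0571).

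Among genes of lipid synthesis and adipocyte identity, Lep and Cebpa passed, both only in the fit of 14 libraries. Cebpa, a core adipocyte transcription factor, fell (-0.49, SE 0.12, adjusted p = 0.0464; -0.40, adjusted p = 0.485, in the fit of 23), the 1 of 24 such factors that passed. Of 16 adipocyte markers, 1 was lower in the fit of 23 at an unadjusted p below 0.05, where 6.14% of all genes were. In the fit of 14, 6 were lower at that level, where 10.1% of all genes were. These 6 included the lipases Pnpla2 (-0.59, adjusted p = 0.0536) and Lipe (-0.38, adjusted p = 0.0665). Of 22 fatty acid synthesis genes, none passed in the fits of 23 or 14 libraries. In that of 23, 1 was lower at an unadjusted p below 0.05, where 6.14% of all genes were. Fasn, fatty acid synthase, ranged from 876 to 6696 CPM in controls and from 901 to 11185 CPM at time 0 (adjusted p = 0.796), and Scd1, a desaturase, from 6339 to 23983 and from 6041 to 27636 CPM (adjusted p = 0.991). Adipoq, the gene of adiponectin, averaged 3721 ± 555 CPM in controls (SD, n = 7) and 3151 ± 815 at time 0 (SD, n = 8), where T0_6 was lowest at 1303 CPM (edgeR, adjusted p = 0.740). Lpl, Pparg, Cfd and Retn did not pass either (adjusted p = 0.743, 0.777, 0.732 and 0.879). Ucp1, of heat-producing fat, stayed under the count filter, at up to 0.149 CPM in controls and 7.16 CPM at time 0.

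**Figure D5:**
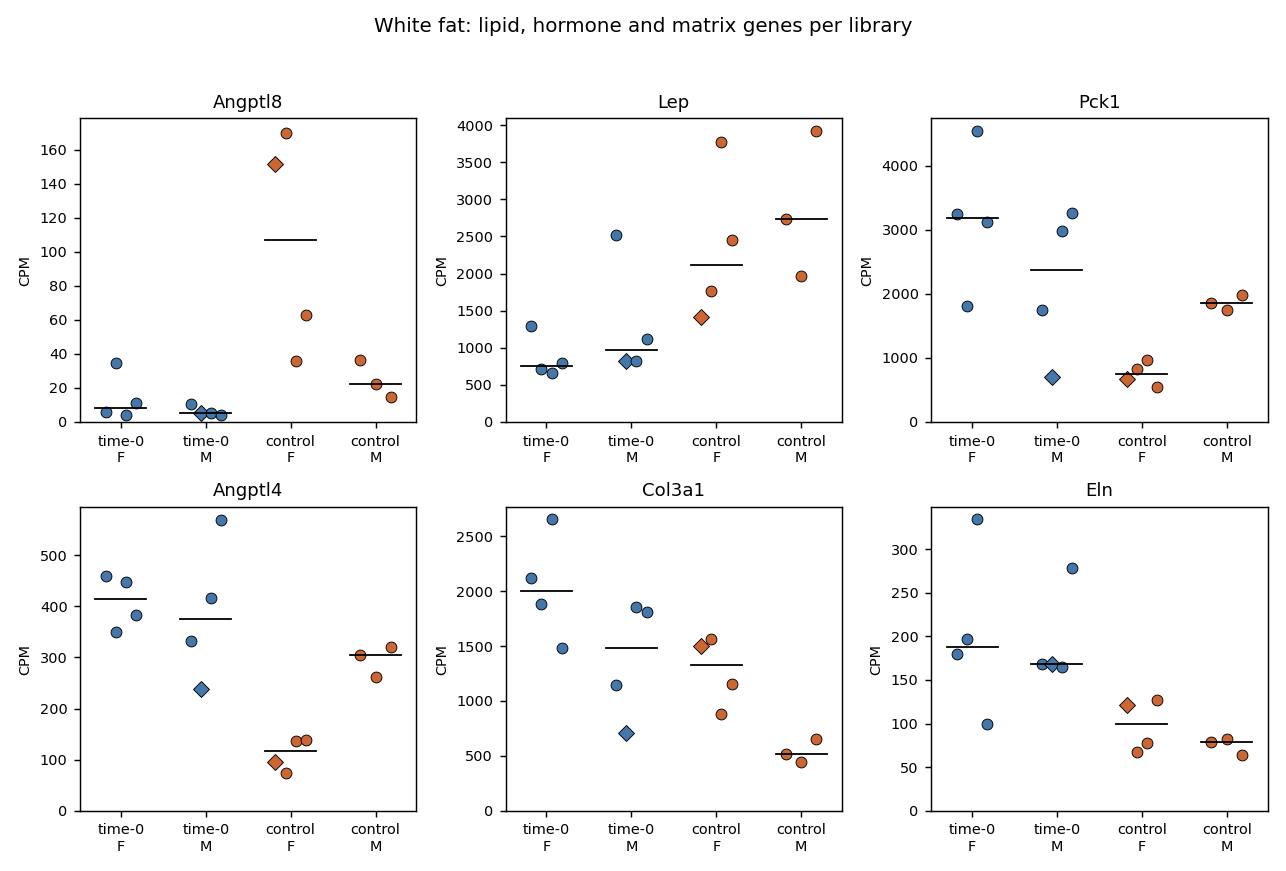
CPM of Angptl8, Lep, Pck1, Angptl4, Col3a1 and Eln in each white fat library by group and sex, with diamonds for T0_6 and 983B and lines at medians. Pck1 and Angptl4 are lower in the 4 F controls than in the 4 F time-0 libraries, and Angptl8 and Lep medians are higher in controls of both sexes.

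Genes of collagen and matrix were mostly lower in controls. In the fit of 23 libraries none of 35 passed, 10 were lower and none higher at an unadjusted p below 0.05 (6.14% and 5.49% of all genes), and the median log2 fold change was -0.34. In the fit of 14 libraries 7 fell: Eln, Col3a1, Loxl1, Loxl2, Fbn1, Tnc and Col1a1. Col3a1, a fibrillar collagen, was at 446 to 658 CPM in M controls and 879 to 1563 CPM in F controls, against 713 to 2654 CPM at time 0 (-1.05, SE 0.20, adjusted p = 0.0183). Eln, the gene of elastin, was at 63.8 to 127.3 CPM in controls and 100 to 334 CPM at time 0 (-1.21, SE 0.23, adjusted p = 0.0183). Col1a1, the other main fibrillar collagen, was at the edge (-0.87, SE 0.22, adjusted p = 0.0482). Without 983B too, 4 of the 35 passed. Of 25 fibroblast and progenitor markers none passed in the fits of 23 or 14 libraries, with Pdgfra, their receptor, at -0.68 (adjusted p = 0.0624) in the latter.

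Chaperones were mostly lower in controls. Of 21 tested, none passed in the fit of 23 libraries and 2 fell in that of 14. In each fit 8 were lower and none higher at an unadjusted p below 0.05. Of all genes, 6.14% were lower and 5.49% higher at that level in the fit of 23. In that of 14 these shares were 10.1% and 11.1%. The median log2 fold change was -0.39 with T0_6 and -0.25 without it. Hspa5 (BiP) was at 301 to 431 CPM in controls and 357 to 1037 CPM at time 0, and Calr (calreticulin) at 389 to 617 and 501 to 1893 CPM. T0_6 was the highest library for both. The fallers in the fit of 14 libraries were Calr (-0.45, adjusted p = 0.0451) and Hyou1 (-0.49, adjusted p = 0.0498), and neither passed without 983B (adjusted p = 0.0520 and 0.0909). The log2 fold change of Calr was -0.76 with T0_6.

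Chemokines that draw monocytes were higher in controls, past the threshold in some fits only. Of 25 inflammation genes none passed in the fit of 23 libraries, and 3 of 23 rose in that of 14. With only the 15 control and time-0 libraries, T0_6 among them, 2 of 23 rose. Ccl8 was at 51.8, 64.1, 67.3 and 82.9 CPM in F controls, 20.6, 20.7 and 28.1 CPM in M controls, and 6.84 to 18.7 CPM at time 0, without overlap (1.80, SE 0.28, adjusted p = 0.00663 in the fit of 14 libraries, and 1.91, adjusted p = 0.168, in that of 23). Ccl7 was at 11.5 to 24.9 CPM against 2.18 to 11.7 CPM (1.81, SE 0.28, adjusted p = 0.00551), where T0_6 was the highest time-0 library. Saa3, an acute-phase protein, was the third (2.56, SE 0.61, adjusted p = 0.0482). Of 26 macrophage markers none passed in either fit, and Adgre1 (F4/80), the pan-macrophage marker, was at 23.8 to 46.9 CPM in controls and 18.7 to 56.6 CPM at time 0 (adjusted p = 0.936).

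Single genes outside these groups rose too. Cys1, the gene of cystin, a protein of primary cilia, was at 37.5 to 69.1 CPM in controls (median 45.6) and 13.03 to 27.2 CPM at time 0 (median 17.1), without overlap (1.40, SE 0.26, adjusted p = 0.0306). Chd5, a chromatin remodeller best known from neurons, was at 0.677 to 3.66 CPM against 0.398 to 1.12 CPM (1.68, SE 0.29, adjusted p = 0.0180). Lonrf1, a RING-finger protein, averaged 15.2 ± 4.08 CPM in controls (SD, n = 7) and 7.61 ± 2.26 at time 0 (SD, n = 8) and rose by 1.00 (SE 0.20, edgeR's adjusted p = 0.0369). Smaller rises were those of Actr3b, a relative of the actin nucleator subunit Arp3 (0.84), Ccdc122 (0.79) and Nck1, an adaptor of receptor signalling (0.41). The levels of these last 3 did not overlap between groups, with adjusted p of 0.0369 for Ccdc122 and 0.0385 for Actr3b and Nck1. The antisense transcript 5033421B08Rik also passed (2.08, SE 0.41, adjusted p = 0.0369). The strand setting of the counting is not given, so whether its reads can be told from those of a partner gene is unknown.

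There were 5 genes that fell. Cacna1g, a T-type calcium channel, was at 2.23 to 4.56 CPM in controls and 4.81 to 12.6 CPM at time 0, the only faller without overlap (-1.21, SE 0.23, adjusted p = 0.0306). Pim3, a growth-promoting serine kinase, was at 57.1 to 105.7 CPM against 92.04 to 236 CPM (-0.99, SE 0.20, adjusted p = 0.0385). Zfp703, a transcriptional corepressor, was at 42.8 to 59.4 against 50.3 to 105.4 CPM (-0.73, SE 0.13, adjusted p = 0.0198). Agap1, an Arf GTPase-activating protein, and Efnb1, an ephrin ligand, fell by 0.61 and 0.63 on the log2 scale (adjusted p = 0.0385 and 0.0429). All 5 passed in the fits of 14 and 13 libraries as well.

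Just outside the threshold in the fit of 23 libraries lay Cd163l1, a scavenger receptor, whose groups did not overlap (4.11 to 7.99 against 0.618 to 2.96 CPM, log2 fold change 1.71, adjusted p = 0.0542), and Cela1, an elastase first known from pancreas (0.94, adjusted p = 0.0679). Cela1 set the 1 library measure that differed. The summed level of 12 pancreas markers averaged 41.7 ± 16.7 CPM in controls (SD, n = 7) and 21.96 ± 6.97 at time 0 (SD, n = 8), higher by 19.7 CPM (exact two-sided permutation test within sex over 2450 arrangements, p = 0.00204, adjusted over 11 measures 0.0224). Cela1 alone averaged 39.9 and 20.8 CPM. The other 10 measures, among them total counts, the share of mitochondrially encoded counts (3.55% and 3.18%) and markers of skeletal muscle, had adjusted p of 0.919 or higher in that exact permutation test.

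The sexes were compared by the difference of the control-minus-time-0 change between M and F. No gene passed (0 of 16784 in edgeR, where 937, or 5.58%, had an unadjusted p below 0.05, and 11 passed in DESeq2). Angptl4 changed by -1.88 in F and -0.40 in M, a difference of 1.48 with an unadjusted p of 0.00156 and an adjusted p of 0.763. Pck1 changed by -2.07 and -0.23, a difference of 1.85 (adjusted p = 0.763). These were named after their values were seen, and a difference between the sexes was not shown for either.

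Other tissues of the same animals were used to ask which changes were larger or smaller in fat than in the mean of cortex, kidney and liver. In a joint fit of 95 libraries, 83 of 20888 genes differed (0.397%), 37 higher in fat and 46 lower. Without the WAT library of T0_6 there were 84 of 20849 (0.403%), 68 higher (0.326%) and 16 lower (0.0767%). Without 983B as well there were 35 of 21040 (0.166%), 29 higher (0.138%) and 6 lower (0.0285%). With the animal as a block, since the same animals gave the tissues, 13 differed, 8 higher and 5 lower.

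Of the 5 genes named by the smallest p, 3 were higher in fat in every one of these fits. The change of Cys1 in fat exceeded the mean change elsewhere by 1.27 (SE 0.25, adjusted p = 0.00339, and 0.00620 with the block): in the joint scaling its kidney level was 93.5 ± 15.4 CPM in controls and 92.7 ± 9.87 at time 0 (SD, n = 8 each). That of Chd5 exceeded it by 2.53 (SE 0.47, adjusted p = 0.00302, and 0.00997 with the block), which rests in part on liver. There Chd5 was near 0 (0.027 CPM in controls and 0.148 at time 0) with a change of -3.07, against -0.10 in cortex (254 ± 19.5 and 273 ± 12.9 CPM; SD, n = 8 each) and 0.63 in kidney, and the difference was not tested without liver. That of Slc38a3, a glutamine transporter, exceeded it by 1.67 (SE 0.31, adjusted p = 0.00302, and 0.00997 with the block). In fat alone Slc38a3 was at 5.55 to 50.3 CPM in controls and 2.45 to 30.0 CPM at time 0 and did not pass in the fit of 23 libraries (1.44, adjusted p = 0.122).

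The other 2 rested on T0_6. Teddm2, of a family named for the epididymis, was at 3526 CPM in T0_6 and at most 1.91 CPM in controls. Its difference of -6.75 (SE 1.27, adjusted p = 0.00302) became -0.63 without T0_6 (adjusted p = 0.869) and did not pass with the block (adjusted p = 0.666). Pcsk5, a proprotein convertase, was at 355 CPM in T0_6, and its difference of -1.82 (SE 0.35, adjusted p = 0.00321) became -0.86 without it (adjusted p = 0.0810) and did not pass with the block (adjusted p = 0.110).

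Some changes were seen in other tissues of these animals too. Cry1 was higher in controls in kidney (1.75, SE 0.25, adjusted p = 1.66e-05) and liver (1.09, SE 0.24, adjusted p = 0.00296) in the joint fit, and the difference of its change in fat from the mean elsewhere did not pass (-0.17, SE 0.28, adjusted p = 1). Nr1d1 was lower in liver (-2.20, SE 0.25, adjusted p = 1.98e-09) and kidney (-1.26, SE 0.24, adjusted p = 0.00279). Immunoglobulin genes rose in kidney and liver. Ighm rose in both (1.75, SE 0.38, adjusted p = 0.0129 in kidney, and 1.52, SE 0.38, adjusted p = 0.00876 in liver), as did Ighg2c (3.85, adjusted p = 0.0234, and 5.35, adjusted p = 0.00350). Igkc rose in liver (2.36, adjusted p = 0.0176) and was at 2.37 in kidney (adjusted p = 0.0796). Jchain rose in kidney (2.42, SE 0.52, adjusted p = 0.0112) and was at 1.39 in liver (adjusted p = 0.115). None of the 4 passed in cortex. The change of Jchain in fat exceeded the mean elsewhere by 2.58 (SE 0.60, adjusted p = 0.0187), which did not hold with the block (adjusted p = 0.140) or without both T0_6 and 983B (2.27, adjusted p = 0.0998). Angptl8 rose in liver (2.23, SE 0.39, adjusted p = 0.000114), where it averaged 766 ± 353 CPM in controls and 163 ± 115.3 at time 0 in the joint scaling (SD, n = 8 each). C130026I21Rik rose in liver (2.33, SE 0.65, adjusted p = 0.0190, edgeR), at 0.750 ± 0.380 CPM against 0.142 ± 0.171 (SD, n = 8 each), well under its level in fat.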

How the data were processed

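Polyadenylated RNA was sequenced from 23 white fat libraries (8 TLS, 7 control, 8 time-0). Per the labels' protocols, mice were perfused with PBS, RNA was extracted with an RNeasy kit, and the NEBNext Ultra II kit was used for library preparation before NovaSeq sequencing. Reads were aligned with STAR 2.7.10 to GRCm38 (mm10), per the submitters' processing notes, which also name DESeq2 and DESeq. The authors deposited raw counts per gene symbol; the table's title line carries the word corrected, and its meaning, the strand setting and the annotation are not given in the sources used here. Sex stands in the labels under another tag, and no library went against it.

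The count test was edgeR 4.0.16, run under R 4.3.3 (filterByExpr with a minimum count of 10, TMM scaling, robust quasi-likelihood fit of 3 groups with sex as a covariate), with Benjamini-Hochberg adjustment over all genes and a threshold of 0.05. The standard error is the log2 fold change divided by the square root of F. CPM values use TMM-scaled library sizes; log2 CPM used to choose genes has a prior count of 2. Total counts of 16030216 to 22921038 set the counting precision. The sex difference and the tissue difference were tested by contrasts in the same manner, and 11 library measures by exact permutation within sex. The method was tested on simulated data. Named genes were, among called genes with mean log2 CPM of at least 0 and no predicted symbol, the 10 largest rises, the 10 largest falls and the 10 smallest p values, then up to 5 called members of each of 49 lists, 28 genes always looked up, and 5 genes of the tissue difference. Other genes were named after their values were seen, and some genes are not reported here. The members and lists were chosen with earlier results of these data known.

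Control and time-0 mice are different animals, so their numbers pair nothing in fat. Across tissues the animal is shared: deviations of fat libraries from their group means correlated with those of the same animal's other tissues by 0.0182 on average (43 pairs) and by -0.00453 with other animals (129 pairs), so the tissue difference was also fitted with the animal as a block. No 2 fat libraries of a group were identical (lowest chi-square per gene 14.7). Alternatives were DESeq2 1.42.0, limma 3.58.1 voom with quality weights, RLE size factors, other filters, other covariates, each sex alone, leaving out each library, and fits without T0_6 and 983B that were chosen after the data were seen. Promoters come from RefSeq and gene positions from GENCODE vM21, both on GRCm38. P-values measure the spread between these animals.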

Additional observations from a re-analysis of the deposited data

Results flagged for a closer look

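In 15 groups of libraries, 11.03% of those tested, a single library lay farther from the rest than a gap test at the 5% level allows, where chance gives about 1 in 20, and 8 of the 15 were T0_6. In T0_6, summed markers were high for epididymis (72434 CPM, next 61.7), lymph node stroma (11036 CPM, next 582), mammary epithelium (1830 CPM, next 229) and testis (22.1 CPM, next 2.33). The genes Teddm2 (11.78 log2 CPM, next 1.52) and Cirbp (7.61, next 6.29) were also high in T0_6, and Adipoq (10.35, next 11.56) and Nr1d1 (6.83, next 7.78) were low.

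Among controls, 983B was high in mammary epithelium markers (682 CPM, next 196), a list that shares keratins with urothelium, and low in Nck1 (5.49 log2 CPM, next 5.73). Control A123 was high in skeletal muscle markers (348 CPM, next 178), and control 9916 was low in Pim3 (5.84 log2 CPM, next 6.35). At time 0, T0_2 was high in Angptl8 (5.12 log2 CPM, next 3.51), and T0_4 was high in Ighv1-11 (-0.89, next -2.30) and Igkv8-16 (0.15, next -1.91), where the other libraries had few counts.

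The control-minus-time-0 change differed between fat and the mean of the other tissues, by a test of that difference in edgeR, for Teddm2 (-6.75), Chd5 (2.53), Slc38a3 (1.67), Pcsk5 (-1.82) and Cys1 (1.27). That of Chd5 rests in part on liver, where it was near 0. Without T0_6, Teddm2 was at -0.63 (adjusted p = 0.869) and Pcsk5 at -0.86 (adjusted p = 0.0810), while Chd5, Slc38a3 and Cys1 passed (adjusted p = 0.00247, 0.00156 and 0.00572).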

How the results depend on the processing

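The number of genes that differed between control and time-0 fat depended on the libraries and the tool. It was 27 in edgeR with 23 libraries and 27 with RLE size factors, 210 in DESeq2, 726 in limma voom with quality weights, 11 without a filter on low counts, 69 with only the 15 control and time-0 libraries, 47 in F alone, 0 in M alone (1122 at an unadjusted p below 0.05) and 0 in M without T0_6 (2649 at that level). It was 401 without T0_6 and the TLS libraries, and 195 without 983B as well. Leaving out 1 library gave between 8 (without control E329) and 62 (without T0_6), and the count also moved by over 1.5 times without controls 983B or A123 (11 each), D215 or 5A66 (15 each), or time-0 libraries T0_1 or T0_3 (9 each), T0_2 or T0_7 (11 each) or T0_8 (13). All 27 genes passed in DESeq2, voom and with RLE size factors, and none changed sign in any alternative in which it was tested. The Igkv17 gene alone kept its call in every alternative in which it was tested (22, where Cry1, for example, was tested in 28). It had 2 counts over the time-0 libraries, so the filter admits it only through libraries where it is high. Its kept calls therefore do not show how firm the call is. Pim3 and Ifit3 kept theirs least often when 1 library was left out, in 2 of 15 fits each. The cause of these differences in count was not tested, except that fits of 1 sex hold fewer samples.

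For the sex difference, DESeq2 gave 11 against 0 in edgeR (937 at an unadjusted p below 0.05), and leaving out 1 library gave 0 each time. Control and time-0 mice are different animals, so fat itself has no paired fit. For the tissue difference, the fit with the animal as a replicate block, without 2 kidney libraries whose labels differ in a letter, gave 13 against 83, leaving out T0_6 gave 84, and leaving out T0_6 and 983B gave 35.

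Among genes that did not pass, signs changed for these log2 fold changes. In F alone Adipoq was -0.051, Retn -0.012, Fos -0.12, Fkbp5 0.37, Dbp 0.22 and Scd1 -0.14. In M alone Cdkn1a was -0.22, Cidea 0.45, Cfd 0.13, Mki67 -0.50 and Per1 0.088, and in M without T0_6 Cdkn1a was -0.080, Cidea 0.54, Mki67 -0.30, Cirbp 0.28 and Scd1 -0.051. In voom Cirbp was 0.014, Fos -0.0062 and Fkbp5 0.071, and without a sex covariate Dbp was 0.037. In the fit of 14 libraries Cirbp was 0.015, Fkbp5 0.16 and Scd1 -0.11, and in that of 13 Fkbp5 was 0.11, Retn -0.055 and Scd1 -0.24. Over the fits without 1 library, Cirbp ranged from -0.40 to 0.00024, Fkbp5 from -0.24 to 0.15, Dbp from -0.25 to 0.031 and Scd1 from -0.12 to 0.15. Without T0_6 the differences of lymph node stroma and mammary marker sums became 96.7 and 67.9 CPM higher in controls. Low counts limit the V genes most.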

Other observations

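Ribosomal protein genes, the protein parts of the ribosome, were mostly above 0 without passing. Of 45 tested, 42 had a positive log2 fold change in the fit of 23 libraries, and the median was 0.22 beside -0.02 for all genes. At an unadjusted p below 0.05, 2 were higher and none lower, against 5.49% and 6.14% of all genes. In the fit of 14 libraries 34 were higher at that level, against 11.1% of all genes, 1 passed the adjusted threshold (Rps24, 0.59, SE 0.15, adjusted p = 0.0475, edgeR), and the median was 0.34.

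Of 19 genes that respond to glucocorticoids, none passed in the fit of 23 libraries and 3 fell in that of 14. These were Txnip, an inhibitor of glucose uptake (-0.73, SE 0.13, adjusted p = 0.0107), Errfi1, a brake on the EGF receptor (-1.001, SE 0.20, adjusted p = 0.0219), and Pdk4. Tsc22d3 (GILZ), a classical target, was at 0.49 in the fit of 14 (adjusted p = 0.0585, edgeR), and Fkbp5 at 0.16 (adjusted p = 0.667). Rbm3, an RNA-binding protein induced by cold, rose in the fit of 14 libraries (0.50, SE 0.12, adjusted p = 0.0424), while Cirbp, its relative, was at 0.02 (adjusted p = 0.964).

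Mast cell proteases Mcpt4, Cma1 and Tpsb2 were at 0.57, 0.53 and 0.47 in the fit of 14 libraries without passing (adjusted p = 0.0641, 0.0855 and 0.127), and Ccr3, the eotaxin receptor of eosinophils, was at -1.74 (adjusted p = 0.0553). Of 32 genes of cell division and 15 of senescence and cell cycle arrest, none passed in the fits of 23 or 14 libraries. The senescence gene Cdkn2a was at 0.406 to 1.19 CPM in controls and 0.152 to 0.888 CPM at time 0 (adjusted p = 0.462), and Cdkn1a (p21) at 15.8 to 68.5 against 15.1 to 32.0 CPM (adjusted p = 0.731). Among 15 depot genes tested none passed in either fit, and Wt1, of visceral fat, was at 14.9 to 79.03 CPM in controls and 13.6 to 74.8 CPM at time 0.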
